A study of Mus musculus with 10 samples.

Results

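The 8 genes Ggt1, Ggt5, Ggt6, Ggt7, Anpep, Lap3, Dpep1 and Cndp2 code for the mouse gamma-glutamyl transferases and for peptidases that act after them in glutathione breakdown. They were chosen by name, for what their products are known to do, and are 8 of the 47729 genes in the count table. All 8 passed the filter on low counts that left 16362 genes for testing. RNA was sequenced from the retinal pigment epithelium (RPE), the pigmented layer behind the retina, of 5 CD1 mice, wild type and at postnatal day 40. Both eyes of each mouse were injected under the retina with adeno-associated virus (AAV), a vector used to bring a gene into cells. The GFP control eye received AAV-Best1-GFP alone, and the other eye, the Nrf2 eye, received AAV-Best1-Nrf2 together with AAV-Best1-GFP. Best1 is here the human promoter that drives expression in the RPE, the coding sequence in AAV-Best1-Nrf2 is that of human NRF2, and GFP served to check infection. The Nrf2 eyes therefore carried more vector in total, and an effect of Nrf2 cannot be told apart from an effect of the added virus. RNA was taken from the eyecup after removal of the retina, and polyA RNA was amplified before sequencing.

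Glutathione is a tripeptide of glutamate, cysteine and glycine and the main small thiol that protects cells from oxidants. Gamma-glutamyl transferases sit in the plasma membrane with the active site outside the cell, where they remove the glutamyl group from glutathione and its conjugates. Membrane dipeptidases and aminopeptidases then split the remaining cysteinylglycine, so that cysteine can be taken up again and used for new synthesis. Nrf2 is a transcription factor that raises the synthesis, use and export of glutathione. In the RPE, which faces strong light and oxygen, this cycle is part of the defence against oxidative stress.

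Library totals lay between 12298404 and 27310638 counts, and a count of 0 allows up to 3 counts, which is 0.110 to 0.244 CPM (counts scaled to a library total of 1e+06). Such limits hold for counting error alone, because PCR copies of a molecule are counted as separate reads. Of the 16362 tested genes, 1036 (6.33%) passed an adjusted p of 0.05 in the paired edgeR quasi-likelihood test, 589 (3.6%) of them higher in the Nrf2 eyes, and the median log2 fold change of all genes was -0.01. Mouse Nfe2l2, the gene of Nrf2, rose from 88.7 ± 12.7 to 353 ± 53.6 CPM (SD, n = 5; log2 fold change 1.97 ± 0.11, adjusted p = 0.000299, edgeR quasi-likelihood test). How far RNA of the human coding sequence entered that count was not tested. Markers of the RPE were abundant in every library (summed 9071 to 41058 CPM over 8 genes), but 5 of the 8, Rpe65, Rlbp1, Rgr, Lrat and Otx2, were lower in the Nrf2 eyes, and Best1 itself had 2 to 33 counts. In such bulk RNA, fewer cells of a type and less RNA per cell cannot be told apart. Both libraries of mouse 2 and the control library of mouse 4 stood apart by rod photoreceptor RNA, with 16070, 6133 and 2338 CPM summed over 6 rod genes, where the other 7 libraries had 29.6 to 351.

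Ggt1 (ENSMUSG00000006345) and Ggt5 (ENSMUSG00000006344) are neighbours on chromosome 10 in the mm10 build. Ggt1 spans chr10:75561604-75586200 and Ggt5 chr10:75589340-75617200, both on the plus strand, with 3139 bases between them and no shared exon. To show how alike the neighbours are where reads were assigned, the longest stretch that their coding sequences share letter for letter is given with 30 bases on either side. The shared letters are in capitals, and each window crosses an exon junction. The genome positions are those of its outer ends.
Ggt1, coding position 1165, chr10:75584937-75585163, plus strand: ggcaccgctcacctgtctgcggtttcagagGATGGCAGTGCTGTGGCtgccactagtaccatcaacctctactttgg
Ggt5, coding position 1192, chr10:75609322-75609850, plus strand: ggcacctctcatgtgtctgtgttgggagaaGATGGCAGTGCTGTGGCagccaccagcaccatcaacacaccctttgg
The stretch is 17 bases long. Over the aligned coding sequences Ggt1 and Ggt5 were identical at 61.3% of positions, and the other 5 pairs of the family lay between 56.8% and 62.3%, with shared stretches of 10 to 14 bases. No 31-base word of any transcript of Ggt1, Ggt5, Ggt6 or Ggt7 occurred in a transcript of another of the 4 genes. A read of 31 or more bases that fits a transcript of 1 of these genes without mismatch thus fits none of the others.

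Nrf2 acts through the antioxidant response element, whose core was searched as TGACNNNGC on both strands in RefSeq promoters of GRCm38.p6, each from 250 bases before to 50 bases after a gene's start. Of 32851 promoters of this length, 4071 (12.4%) hold the core, and by gene 3781 of 27025 (13.99%) have such a promoter. The table has 9 promoters of 6 of the 8 genes, with no entry for Ggt5 and Cndp2. Of these, 3 hold the core, all of them among the 4 alternative promoters of Ggt1, which makes 1 of the 6 genes. They are shown with up to 15 bases on either side and the core, or its reverse complement, in capitals, because the vector carries the factor that binds this element.
Ggt1, 41 bases after the start, chr10:75564158-75564181, plus strand: ttgaccttgggcatcTGACACAGC
Ggt1, 36 bases before the start, chr10:75568611-75568649, plus strand: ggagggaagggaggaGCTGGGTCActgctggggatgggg
Ggt1, 83 bases before the start, chr10:75571462-75571500, plus strand: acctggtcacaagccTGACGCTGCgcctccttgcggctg
A match of letters is a description and not evidence of binding.

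Ggt5 was higher in the Nrf2 eye of all 5 mice and, alone among the 8 genes, passed the test. Its product cleaves leukotriene C4, a glutathione conjugate, and other glutathione compounds. The control eyes of mice 1 to 5 had 3.72, 4.19, 0.91, 1.31 and 2.12 CPM, from 13 to 73 counts. In the Nrf2 eyes the levels were 9.97, 24.5, 12.1, 19.3 and 13.3 CPM, from 219 to 602 counts. The groups did not overlap, and the CPM was 2.68 to 14.7 times higher within a mouse. The fitted log2 fold change was 2.77 ± 0.41 (SE over 5 mice; adjusted p = 0.00651, edgeR quasi-likelihood test). A rise without overlap between the groups was seen in 633 (3.87%) of the tested genes. Ggt5 was called in all 13 alternative fits, with log2 fold changes from 2.40 to 3.14 and adjusted p-values up to 0.0328. The largest of these p-values came from the fit with the rod genes as a covariate.

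Ggt1, the main transferase that cleaves extracellular glutathione, was higher in every Nrf2 eye by a smaller amount. The control eyes of mice 1 to 5 had 65.0, 88.0, 83.9, 64.9 and 53.4 CPM. The Nrf2 eyes had 94.5, 94.9, 115, 82.0 and 126 CPM. The ranges overlapped, although the Nrf2 eye was the higher in every mouse, by 0.61, 0.09, 0.47, 0.27 and 1.15 on the log2 scale. The fitted log2 fold change was 0.52 ± 0.18 (SE, n = 5) and missed the threshold (adjusted p = 0.113, edgeR quasi-likelihood test). The same direction in 5 of 5 mice was shared by 20.2% of all tested genes. In DESeq2, where 5.42% of the tested genes were called higher in the Nrf2 eyes, Ggt1 passed with a log2 fold change of 0.53 (adjusted p = 0.0429).

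Ggt7 (ENSMUSG00000027603, chr2:155490379-155518237, minus strand), a family member known mainly from the brain and without a settled substrate, was also higher in the Nrf2 eye of each mouse. The control eyes had 1.58, 18.1, 1.82, 4.60 and 3.19 CPM, from 26 to 294 counts. In the Nrf2 eyes it stood at 6.01, 25.8, 4.74, 8.62 and 6.13 CPM, from 101 to 635 counts. Both eyes of mouse 2 lay far above the other mice, so the groups overlapped. Within the mice, the log2 ratios were 1.93, 0.49, 1.36, 0.83 and 0.83. The fitted log2 fold change was 1.09 ± 0.25 (SE, n = 5), just outside the threshold (adjusted p = 0.0501, edgeR quasi-likelihood test). It passed in 4 of 13 alternative fits, among them DESeq2 (adjusted p = 0.00178), and over all of them the adjusted p-values ran from 0.00178 to 0.709, the highest from the fit that ignored the mouse. Mouse 2 was also the mouse with the most rod RNA. Without it the log2 fold change was 1.30 (adjusted p = 0.0900), and with the rod genes as a covariate it was 1.25 (adjusted p = 0.110).

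Ggt6 (ENSMUSG00000040471, chr11:72435526-72438400, plus strand), a transferase whose function is little known, was the family member with lower values in most Nrf2 eyes. The control eyes had 3.77, 5.11, 3.77, 3.40 and 2.93 CPM. The Nrf2 eyes had 4.14, 3.50, 2.86, 2.60 and 2.73 CPM. The Nrf2 value was higher in mouse 1 alone, the ranges overlapped, and the log2 fold change of -0.27 ± 0.13 (SE, n = 5) did not pass (adjusted p = 0.623, edgeR quasi-likelihood test).

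**Figure D1:**
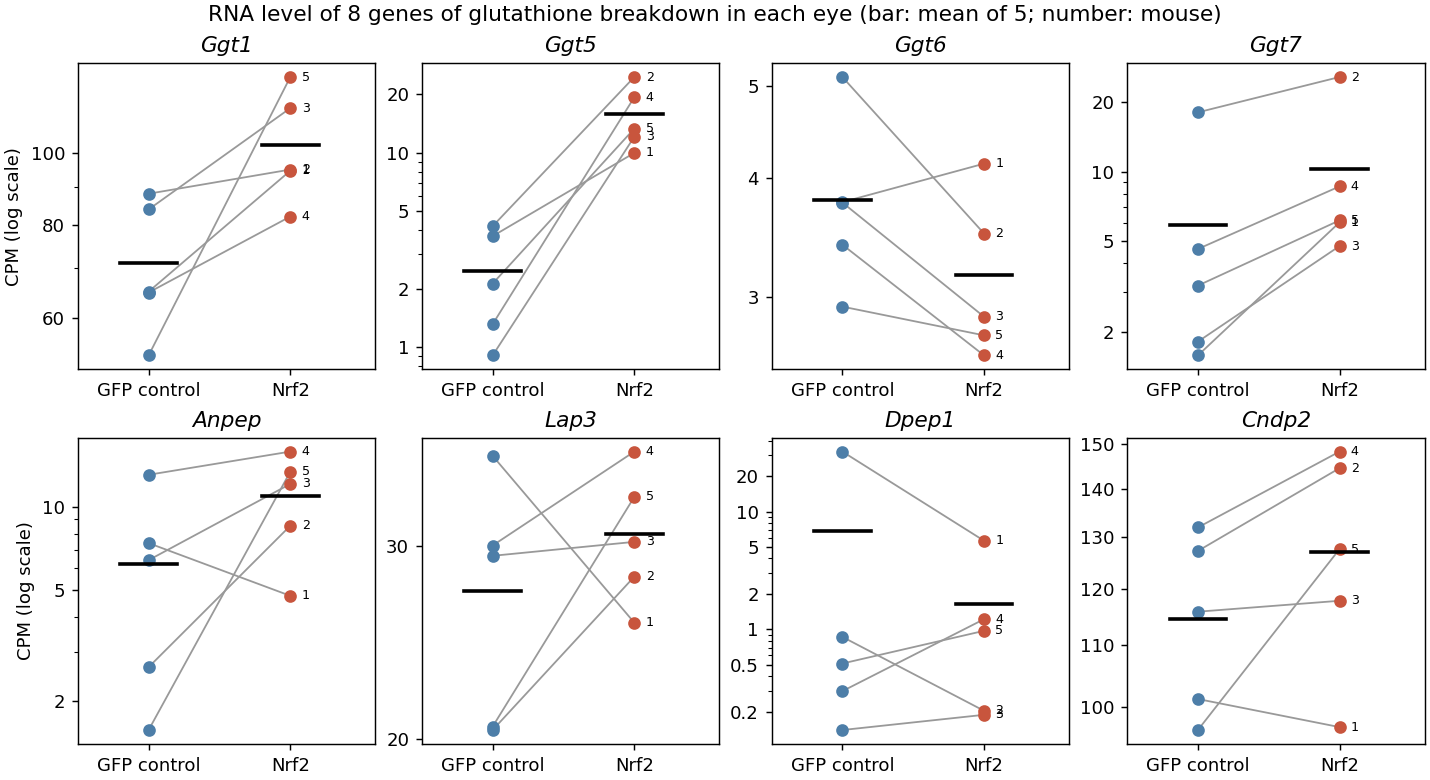
CPM on a log axis of the 8 genes in the GFP control and the Nrf2 eye of each of 5 mice, with lines joining the eyes of a mouse, mouse numbers at the Nrf2 points and a black bar at the mean of each group. Of the 8 genes, Ggt5 is the one whose groups do not overlap. Ggt7 is highest in both eyes of mouse 2, and Dpep1 in the control eye of mouse 1.

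Whether the family members responded unequally was tested on the within-mouse log2 ratios themselves. The ratio of Ggt5 exceeded that of Ggt1 in 5 of 5 mice, by 2.24 ± 0.50 (SE), and that of Ggt6 in 5 of 5 mice, by 3.03 ± 0.52. The ratios of Ggt1 and Ggt7 exceeded that of Ggt6 in every mouse, by 0.79 ± 0.15 and 1.36 ± 0.16. For these 4 pairs the two-sided exact permutation test gave p = 0.0625, the smallest that this test can give with 5 mice, so that no pair could pass 0.05 in it, and p adjusted over the 6 pairs was 0.0938. Ggt5 exceeded Ggt7 by 1.67 ± 0.57 and Ggt7 exceeded Ggt1 by 0.57 ± 0.27, each in 4 of 5 mice (exact permutation p = 0.125, adjusted p = 0.125).

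Per length, which allows levels of different genes to be set side by side, Ggt1 made up most of the family RNA in every library. In CPM per kilobase of exon, the control means were 20.8 ± 4.25 for Ggt1, 2.09 for Ggt6, 1.80 for Ggt7 and 0.414 for Ggt5 (SD, n = 5). In the Nrf2 eyes they were 30.1 ± 5.20 for Ggt1, 3.14 for Ggt7, 2.67 for Ggt5 and 1.74 for Ggt6. The share of Ggt1 in the sum of the 4 genes was 83.6% ± 5.84 in the control and 79.9% ± 8.56 in the Nrf2 eyes. The share of Ggt5 went from 1.67% ± 0.899 to 7.16% ± 2.72 and did not overlap between the groups, whose ranges were 0.560% to 2.83% and 5.02% to 10.4%. The share of Ggt6 went from 8.39% ± 0.657 to 4.71% ± 1.25 and did not overlap either, with ranges of 7.58% to 9.33% and 3.52% to 6.80%. A share also depends on the levels of the other genes in the sum, and the RNA of Ggt6 itself did not pass the test. That of Ggt7 was 6.32% ± 5.67 and 8.20% ± 6.26, with both of its highest values in mouse 2, and 3.93% and 5.52% without that mouse. The sum of the family was 25.1 ± 6.28 CPM per kilobase in the control and 37.6 ± 4.99 in the Nrf2 eyes, and 1.20 to 2.29 times higher within a mouse. Of the difference between these means, 73.9% was Ggt1, 18.1% Ggt5 and 10.8% Ggt7, while Ggt6 took away a small part (-2.78%). With coding length in place of exon length these parts were 65.9% for Ggt1, 27.7% for Ggt5, 7.91% for Ggt7 and -1.51% for Ggt6, and the mean share of Ggt5 in the Nrf2 eyes was 12.1%. These parts are a description: Ggt1 did not pass the test, the sum was not tested, and without mouse 5 the means of Ggt1 were 22.1 and 28.3 CPM per kilobase. The level of Ggt1 per length was 30.3 to 160 times that of Ggt5 in the control eyes and 6.73 to 16.5 times in the Nrf2 eyes. By coding length the ratios were smaller, at 17.6 to 93.2 and 3.91 to 9.59.

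**Figure D2:**
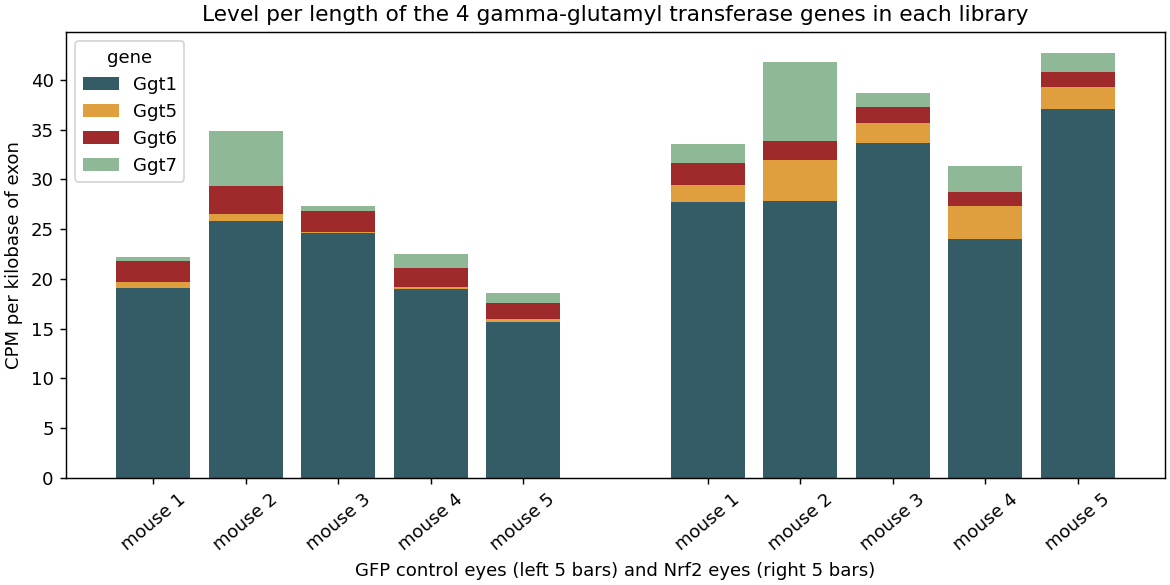
Stacked CPM per kilobase of exon of Ggt1, Ggt5, Ggt6 and Ggt7 in the 5 GFP control libraries (left) and the 5 Nrf2 libraries (right). Ggt1 is the largest part of each bar, and the part of Ggt5 grows from 0.560% to 2.83% of the bar in the control eyes to 5.02% to 10.4% in the Nrf2 eyes.

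None of the 4 peptidases passed the test. Cndp2 (ENSMUSG00000024644, chr18:84667465-84685702, minus strand), a cytosolic dipeptidase that splits cysteinylglycine, had 101, 127, 116, 132 and 96.5 CPM in the control eyes of mice 1 to 5. The Nrf2 eyes had 97.0, 145, 118, 148 and 128 CPM. The ranges overlapped, and the log2 fold change was 0.13 ± 0.05 (SE, n = 5; adjusted p = 0.516, edgeR quasi-likelihood test). After TMM scaling the log2 ratio was above 0 in all 5 mice, at 0.01 to 0.31, whereas in plain CPM mouse 1 was lower in the Nrf2 eye.

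Lap3 (ENSMUSG00000039682, chr5:45493374-45512691, plus strand), the cytosolic leucine aminopeptidase, which also splits cysteinylglycine, had 36.3, 20.4, 29.4, 30.04 and 20.5 CPM in the control eyes. Those of the Nrf2 eyes were 25.5, 28.1, 30.3, 36.6 and 33.3 CPM. The Nrf2 eye was the higher in 4 of 5 mice, mouse 1 being the exception, and the log2 fold change was 0.18 ± 0.18 (SE, n = 5; adjusted p = 0.647, edgeR quasi-likelihood test).

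Anpep (ENSMUSG00000039062, chr7:79821803-79861059, minus strand), aminopeptidase N of the cell surface, had 7.40, 2.65, 6.42, 13.02 and 1.57 CPM in the control eyes. The Nrf2 eyes had 4.78, 8.54, 12.1, 15.8 and 13.4 CPM. The ranges overlapped and mouse 1 was again the exception to a higher Nrf2 value. The log2 ratios spread from -0.54 to 2.92 over the mice, and the log2 fold change of 1.01 ± 0.60 (SE, n = 5) did not pass (adjusted p = 0.340, edgeR quasi-likelihood test).

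Dpep1 (ENSMUSG00000019278, chr8:123186242-123201812, plus strand), the membrane dipeptidase that splits cysteinylglycine outside the cell and converts leukotriene D4, was near the detection limit in most libraries. The control eyes had 633, 14, 2, 5 and 14 counts. In the Nrf2 eyes there were 124, 5, 5, 15 and 16 counts. Both eyes of mouse 1 thus lay far above all other libraries, at 32.3 and 5.65 CPM against 0.14 to 1.22. The log2 fold change of -0.49 ± 0.76 (SE, n = 5) did not pass (adjusted p = 0.821, edgeR quasi-likelihood test), and without mouse 1 the gene fell under the filter and was not tested.

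Among the 8 genes 1 was thus called, against 6.33% of all tested genes, and 4 kept 1 direction in 5 of 5 mice, against 20.2%. Their median log2 fold change was 0.35. Ordered by CPM per kilobase, the control eyes had Cndp2 (27.0), Ggt1 (20.8), Lap3 (8.82), Dpep1 (2.74), Ggt6 (2.09), Ggt7 (1.80), Anpep (1.502) and Ggt5 (0.414). Only Ggt1 and Lap3 were neighbours in that order whose ranges did not overlap. The place of Dpep1 rested on mouse 1, without which its mean was 0.182. In the Nrf2 eyes the order was Ggt1 (30.1), Cndp2 (29.9), Lap3 (9.93), Ggt7 (3.14), Ggt5 (2.67), Anpep (2.64), Ggt6 (1.74) and Dpep1 (0.662, and 0.260 without mouse 1). The ranges were apart between Cndp2 and Lap3 and between Lap3 and Ggt7 alone. The place of Ggt7 rested on mouse 2. Without that mouse the Nrf2 means were 1.95 for Ggt7, 2.31 for Ggt5 and 2.78 for Anpep, and the control means 0.856 for Ggt7 and 1.72 for Anpep. Over all mice, Ggt5 moved from the last to the fifth place. With coding length in place of exon length, Cndp2 stood above Ggt1 and Ggt5 above Ggt7 in the Nrf2 eyes, and Ggt7 above Ggt6 in the control eyes.

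The genes next to the Ggt1 and Ggt5 pair were compared in the same fit. Lrrc75b, 1273 bases before Ggt1 on the opposite strand, had 7.37 ± 2.33 CPM in the control and 13.8 ± 3.87 in the Nrf2 eyes (SD, n = 5) and rose in 5 of 5 mice, with a fitted value of 0.90 ± 0.19 (log2, SE) and an adjusted p of 0.0385 (edgeR quasi-likelihood test). Susd2, 19505 bases after Ggt5, had a log2 fold change of 0.49 ± 0.59 (adjusted p = 0.678). The difference of Ggt5 was the largest of the 4 genes. A pseudogene, Gm9985, and a small nuclear RNA gene, Gm26402, lie inside Ggt5 on the opposite strand without sharing an exon, and had 0 to 9 counts and 0 counts.

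Ggt7 and Acss2, which codes for the enzyme that turns acetate into acetyl-CoA, face each other on opposite strands of chromosome 2 and overlap by 290 bases. Of these, 197 are exonic in both, which is 6.04% of the exon length of Ggt7. The overlap rests on 1 of the 5 annotated Ggt7 transcripts (Ggt7-203). The start of Ggt7 in RefSeq lies 3102 bases away from the first base of Acss2. Of the 3233 different 31-base words in Ggt7 transcripts, 168 (5.20%) occur in Acss2 transcripts read on the other strand. Acss2 had 29.2 ± 4.80 CPM in the control and 63.6 ± 13.1 in the Nrf2 eyes and rose in 5 of 5 mice (adjusted p = 0.00696, edgeR quasi-likelihood test), with a fitted log2 fold change of 1.10 ± 0.17 (SE), nearly the value of Ggt7 (1.09 ± 0.25). The counts of Ggt7 were 4.88%, 56.6%, 5.42%, 18.5% and 13.8% of those of Acss2 in the control eyes of mice 1 to 5. In the Nrf2 eyes they were 9.06%, 36.7%, 9.66%, 10.7% and 11.8%. The ratio was not constant, and both values of mouse 2 stood apart. The strand setting of the counting is not given in the sources used here, so reads in the shared 197 bases cannot be assigned to either gene with certainty, and their part in the count of Ggt7 was not tested.

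On the other side of Ggt7, Ncoa6, a transcriptional coactivator 16484 bases away, fell from 38.4 ± 2.74 to 24.9 ± 4.14 CPM (log2 fold change -0.65 ± 0.09; adjusted p = 0.0151, edgeR quasi-likelihood test). Gss, glutathione synthetase, which joins glycine in the last step of glutathione synthesis, lies 44943 bases beyond Ggt7 and overlaps Acss2 in its span. It rose from 39.6 ± 1.07 to 178 ± 37.3 CPM (log2 fold change 2.12 ± 0.12; adjusted p = 0.000247), more than Ggt7 and Acss2. The genes in this neighbourhood therefore did not share a single direction.

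**Figure D3:**
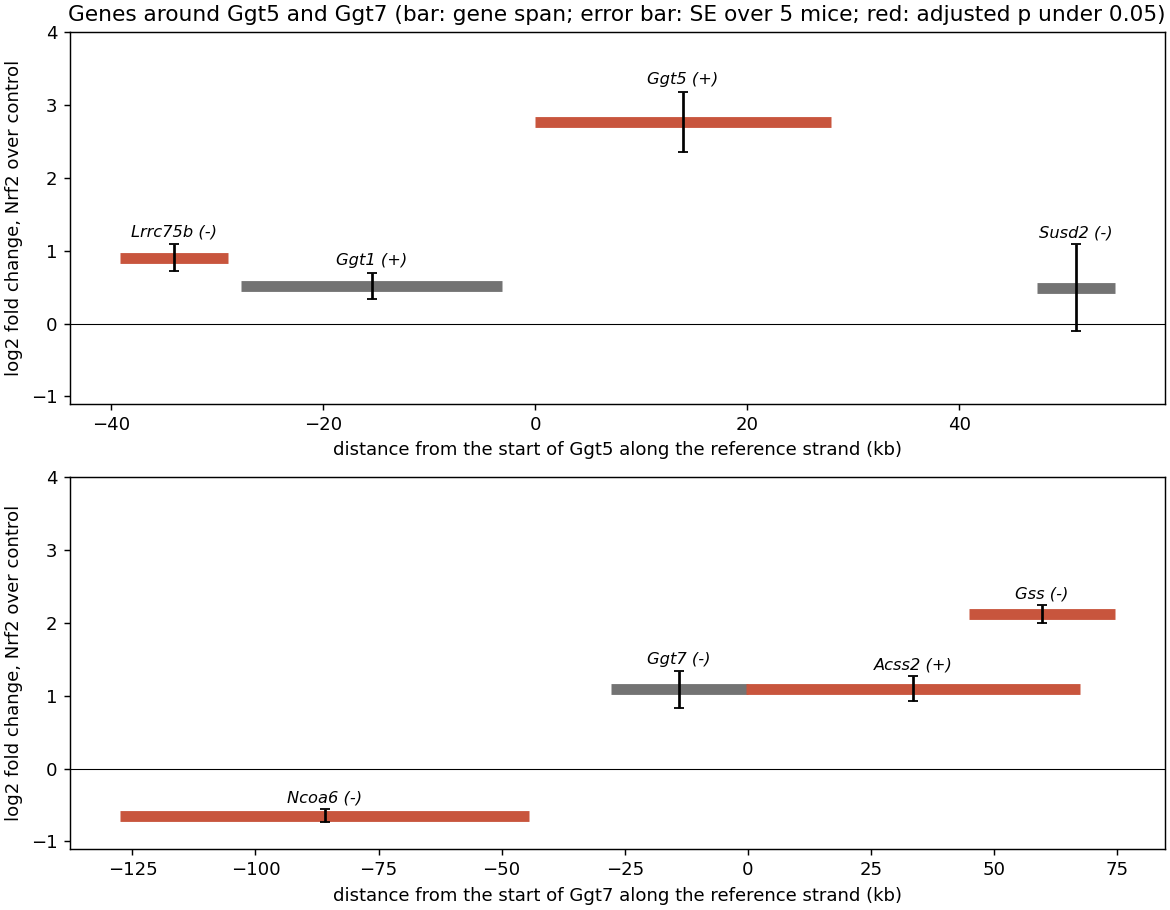
Fitted log2 fold changes of Nrf2 over control eyes for the genes around Ggt5 (top) and Ggt7 (bottom), placed by distance in kilobases from the start of Ggt5 or Ggt7, with the strand in brackets, error bars for the SE over 5 mice and red for an adjusted p under 0.05. Ggt5 (2.77) stands above Ggt1 (0.52), while Ggt7 (1.09) and Acss2 (1.10) meet at the same height and Ncoa6 (-0.65) lies under 0.

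Around the other members, no neighbour passed the test. Mybbp1a, 2954 bases after Ggt6, had a log2 fold change of 0.34 ± 0.06 (adjusted p = 0.0886, edgeR quasi-likelihood test), and Smtnl2 on its other side -0.07. The neighbours of Anpep (Mesp2 and Ap3s2), Lap3 (Qdpr and Med28) and Dpep1 (Sult5a1 and Chmp1a) had values from -0.19 to 0.04. Cndp1, the secreted carnosine dipeptidase beside Cndp2, had 0.61 ± 0.36 (adjusted p = 0.446), and Fam69c on the other side 0.36 ± 0.21 (adjusted p = 0.407). Gm44974, which lies inside Anpep on the same strand, had 0 to 11 counts. Dpep1 lies within the span of the long annotated gene Gm20388 on the same strand without sharing an exon, and that gene had a log2 fold change of -0.04 ± 0.29 (adjusted p = 0.965).

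The rest of the pathway was taken from 6 lists of 34 genes, of which 31 were tested. Of these, 7 were higher and 3 lower in the Nrf2 eyes, and the median log2 fold change was 0.06. Of all tested genes, 3.6% were called higher and 6.33% in either direction. The called genes included textbook targets of Nrf2 such as Gclc and Slc7a11, and the lists were chosen with earlier results of these data known. The steps that bring in its precursors, make glutathione and send it out of the cell held 6 of the 7 higher genes. Gclc and Gclm, the subunits of glutamate-cysteine ligase, the rate-limiting enzyme of synthesis, rose by 4.46 ± 0.14 and 2.95 ± 0.11 on the log2 scale (SE, n = 5). Gclc went from 90.1 ± 17.7 to 1974 ± 127 CPM. Slc7a11, which brings in cystine, rose by 3.52 ± 0.15. Of the exporters of glutathione and its conjugates, Abcc4 rose by 2.79 ± 0.09 and Abcc1 by 1.32 ± 0.17, whereas Abcc2 (0.35 ± 1.03) and Abcc5 (-0.11 ± 0.11) did not pass. Slc1a1, which carries glutamate and cysteine into cells, fell by 0.96 ± 0.13, from 1016 ± 241 to 534 ± 165 CPM (log2 fold change -0.96). Slc3a2, the partner of Slc7a11, had 0.42 ± 0.12 (adjusted p = 0.120, edgeR quasi-likelihood test), and the peptide carrier Slc15a2 -0.0048 ± 0.25.

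The leukotriene list had 3 tested genes. Ltc4s, leukotriene C4 synthase, which makes the substrate of Ggt5 from glutathione and leukotriene A4, was higher in 5 of 5 mice, at 0.615 ± 0.338 CPM in the control and 3.67 ± 1.61 in the Nrf2 eyes. The fitted difference was 2.59 ± 0.43 (log2, SE) with an adjusted p of 0.0163 (edgeR quasi-likelihood test), from only 3 to 22 counts in the control eyes and 37 to 106 in the Nrf2 eyes. Alox5ap had 1.78 ± 0.70 (adjusted p = 0.198) and the receptor Cysltr1 0.04 ± 0.74 (adjusted p = 0.989). Alox5, the enzyme that begins leukotriene synthesis, had 0 to 18 counts and the receptor Cysltr2 0 to 4 counts, too few to be tested.

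The lists of breakdown inside the cell and of further peptidases held no higher gene. They are short, and 3.6% of all tested genes were called higher, so this is near the share of all genes. Of the 5 genes of cytosolic breakdown, Chac2, which cleaves glutathione inside the cell, fell from 24.0 ± 3.52 to 12.4 ± 1.99 CPM (log2 fold change -0.97 ± 0.11; adjusted p = 0.00733, edgeR quasi-likelihood test) and was lower in 5 of 5 mice. Its relative Chac1 had 0.54 ± 0.38, Ggct 0.54 ± 0.16, Ggact -0.10 ± 0.18 and Oplah 0.19 ± 0.18, with no call. Of the further peptidases, 7 of 8 were tested and Dpep2, a membrane dipeptidase that converts leukotriene D4, fell from 10.9 ± 2.68 to 3.04 ± 1.83 CPM (log2 fold change -1.99 ± 0.35; adjusted p = 0.0137). Its control eyes had 13.9, 8.995, 11.9, 12.3 and 7.25 CPM. Its Nrf2 eyes had 2.64, 1.14, 6.09, 2.52 and 2.79 CPM. Dpep3 had 0 or 1 count. The 5 genes of the mercapturate list (Nat8, Acy1, Acy3, Kyat1 and Kyat3) had log2 fold changes from -0.74 to -0.12 with no call.

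**Figure D4:**
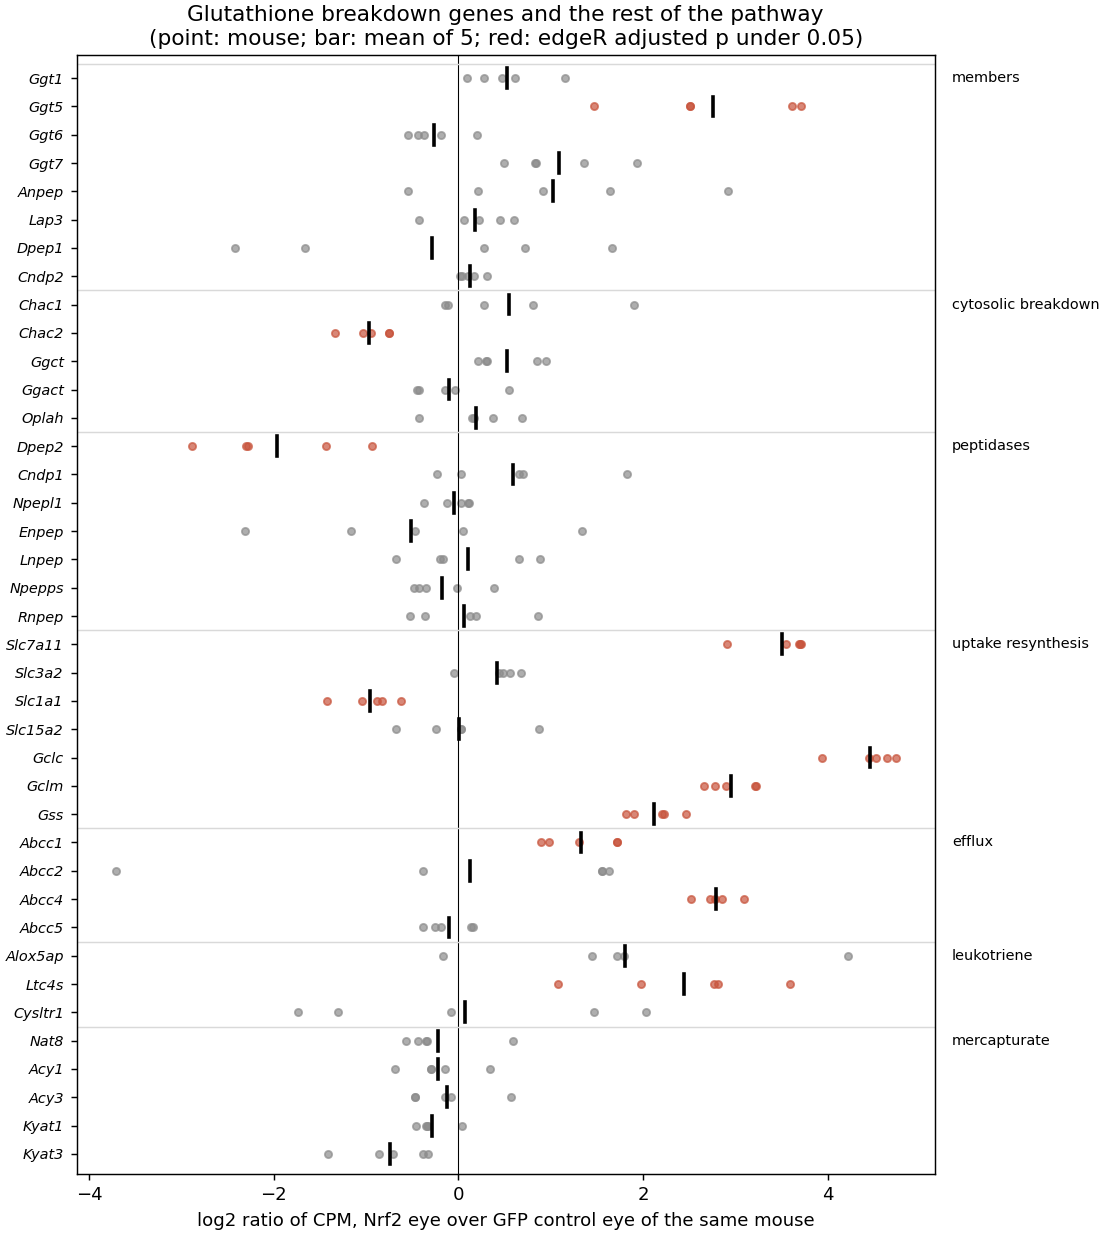
Log2 ratio of CPM of the Nrf2 over the control eye of each of 5 mice (points) and their mean (bar) for the 8 genes at the top and the 31 tested genes of 6 pathway lists, with red points for genes with an edgeR adjusted p under 0.05. Ggt5 is the red row among the 8, and Gclc, Gclm, Gss, Slc7a11, Abcc1, Abcc4 and Ltc4s lie to the right while Chac2, Dpep2 and Slc1a1 lie to the left of 0.

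Summed markers of other cell types were set beside some of these values. The 12 genes of the microglia and macrophage list had a summed level of 148 to 277 CPM in the control and 326 to 1636 CPM in the Nrf2 eyes. Of the 12, 9 were higher in the Nrf2 eyes, against 3.6% of all tested genes, and the median log2 fold change over the list was 4.47. The sum understates that change, because most of it in the control eyes was Csf1r, which was not called and had 196 ± 50.5 CPM there and 142 ± 58.9 in the Nrf2 eyes (SD, n = 5). C1qa, a complement gene of these cells, had 4.88 ± 2.23 and 166 ± 107 CPM. Mrc1 (0.702 ± 0.339 and 1.67 ± 0.551 CPM) and Lyve1 (0.964 ± 1.51 and 1.65 ± 2.34 CPM), also on the list, were low in both groups. Like most genes of this list, Ggt5 and Ltc4s were higher in the Nrf2 eyes. The sum in the Nrf2 eyes of mice 1 to 5 was 745, 326, 620, 972 and 1636 CPM, beside 9.97, 24.5, 12.1, 19.3 and 13.3 CPM of Ggt5. Mouse 2 had the lowest sum and the highest Ggt5 of the Nrf2 eyes, and mouse 5 had the highest sum with 13.3 CPM of Ggt5. Mouse 4 was next to the highest in the sum and in Ggt5. Mouse 2 also stood apart by rod RNA and had the highest control level of Ggt5 (4.19 CPM). The part of these cells in the level of Ggt5 was not tested. Of the 5 neutrophil genes only 1 passed the filter and Mmp8 was at 0 in every library. The endothelial list (18.4 to 112 CPM in the control and 44.2 to 106 in the Nrf2 eyes) had no call, and of the 6 pericyte genes (67.3 to 149 and 51.6 to 86.4 CPM) 1, Kcnj8, was lower.

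The rod list reached 16070 and 6133 CPM in the control and the Nrf2 eye of mouse 2, where Ggt7 was also highest. Outside mouse 2 the control eye of mouse 4 had 2338 CPM of rod RNA with 4.60 CPM of Ggt7, while the Nrf2 eye of mouse 4 had 51.2 CPM of rod RNA with 8.62 CPM of Ggt7. The 4 genes of Müller glia had 43.2 to 95.1 CPM in the control and 62.4 to 235 CPM in the Nrf2 eyes. Mouse 2 was the highest of the Nrf2 eyes in this list, and mouse 1 (95.1 CPM) of the control eyes, ahead of mouse 2 (92.97 CPM). The part of retinal RNA in the level of Ggt7 was not tested beyond the fits without mouse 2 and with the rod covariate. The fibroblast list had 125 to 677 CPM in the control and 135 to 774 CPM in the Nrf2 eyes with no call. Its highest control value was in mouse 1 (677 CPM), the library with 633 counts of Dpep1, but the Nrf2 eye of mouse 4 had 774 CPM with 15 counts of Dpep1. The muscle list had 45.8 to 80.8 CPM in the control and 4.51 to 531 CPM in the Nrf2 eyes with no call.

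**Figure D5:**
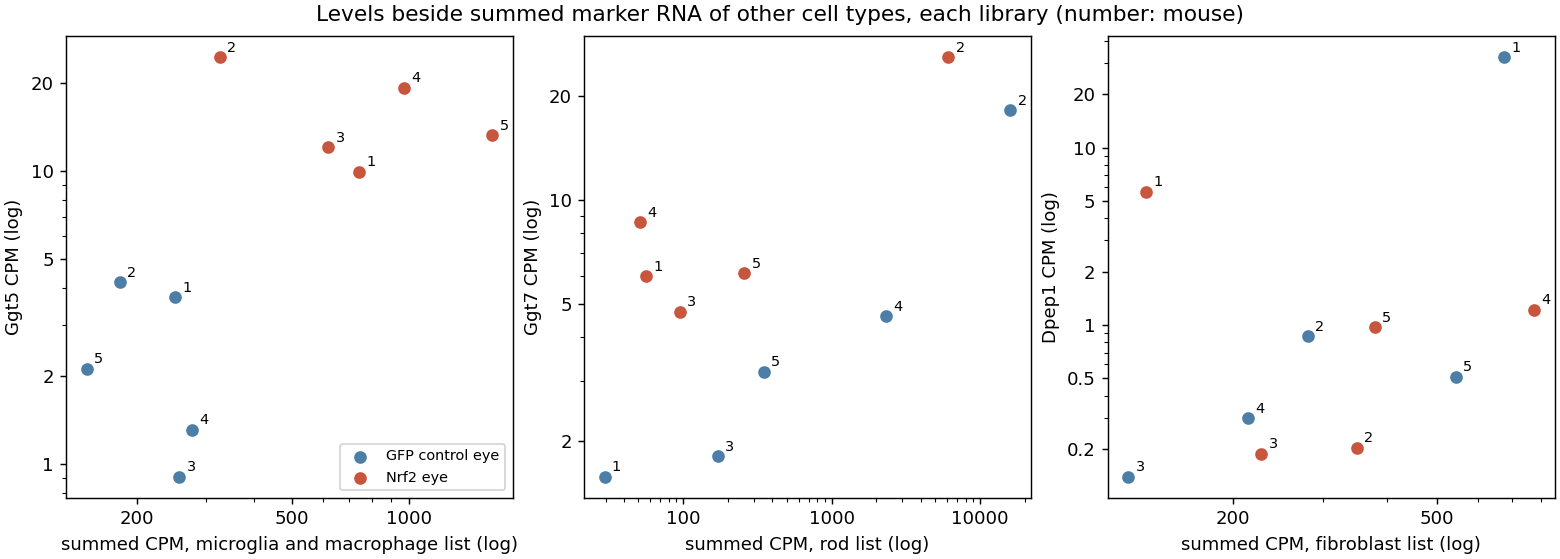
CPM of Ggt5, Ggt7 and Dpep1 in each of 10 libraries beside the summed CPM of the microglia and macrophage, the rod and the fibroblast list, on log axes, with mouse numbers and with GFP control eyes in blue and Nrf2 eyes in red. The Nrf2 eye of mouse 2 has the most Ggt5 (24.5 CPM) and the least microglial and macrophage RNA (326 CPM) of the Nrf2 eyes, and both eyes of mouse 2 have the most Ggt7 and rod RNA.

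The genes whose log2 CPM followed the transferases most closely over the 10 libraries were taken from the 16361 other tested genes. They are a description, since libraries of a mouse share their source and the groups differ. For Ggt5 they included Ano3 and Adm (Pearson's r 0.98 and 0.97), both of which rose in the Nrf2 eyes, with log2 fold changes of 4.67 and 5.71. After each group's mean was subtracted, they were Pnrc1, AI593442 and Scrn1 (each 0.97), none of which was called. For Ggt1 they were Id3, Zfp874b and Kti12 (0.95, 0.92 and 0.91), and after subtraction Fsbp, Id3 and Nmnat2 (0.94, 0.91 and 0.88). For Ggt7 they were Elmod1, Tmem59l and Sept3 (0.96, 0.95 and 0.95), and after subtraction Sgip1, Reep6 and Rncr4 (0.99, 0.98 and 0.98). Neither the Ggt1 nor the Ggt7 lists held a called gene. Both eyes of mouse 2 were the highest libraries of Ggt7.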

How the data were processed

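Per the labels and the study's methods, reads were aligned with STAR to mm10 with Ensembl 91 genes and counted with featureCounts within bcbio; counts were also estimated with Salmon (0.8.2 in the submitters' processing notes) for DESeq2. Which of these tables was deposited, the strand setting and other versions are not given in the sources used here. The authors deposited raw counts per gene, whole numbers without normalization, for 10 libraries with 0 columns of other samples. Of 47729 genes, 15729 had no count in any library.

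Positions, exons and lengths came from GENCODE M21 (GRCm38, mm10). Each gene was fitted with edgeR 4.0.16 (R 4.3.3) after filterByExpr and TMM scaling, with mouse and vector as terms, the quasi-likelihood F test, Benjamini-Hochberg over all 16362 tested genes, and a threshold of 0.05. The script was tested on simulated data. Log2 ratios within a mouse used log2 CPM with a prior count of 2, and the SE is the SD of the 5 ratios over the square root of their number. Alternatives were DESeq2 1.42.0, limma 3.58.1 (voom), other scaling, filters, thinning to 12298404 counts, a rod covariate and leaving out mice.

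The eyes of a mouse share the animal number in the labels. Deviations from the group means correlated at r = 0.186 to 0.707 within mice and at -0.421 to 0.280 between different mice.

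The 8 genes, the pathway and marker lists and the tests were chosen with earlier results of these data known. Named genes were the 8, the genes overlapping them, the nearest tested gene on each side, the called or counted pathway genes, and for Ggt1, Ggt5 and Ggt7 the 3 genes of highest correlation. A result of that rule is not reported here.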

Additional observations from a re-analysis of the deposited data

Results flagged for a closer look

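The control eye of mouse 1 stood apart from the other 4 control eyes in Dpep1, at 5.00 on the log2 CPM scale against -2.01 to -0.09. The gap to the nearest of them, divided by the range of the 5 values, was 0.725, just over Dixon's critical value of 0.71 for 5 samples. It was 1 of 24 sets of 5 values checked, the levels in each group and the ratios within mice, of which chance gives 1.2. The Nrf2 eye of mouse 1 was the highest Nrf2 library as well, with 124 counts, and the source of this RNA was not tested.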

How the results depend on the processing

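Ggt5 was called under all 13 alternatives. No result reversed. The number of called genes was 1036, 1812 with DESeq2, 468 with the rod covariate and 584 to 857 without single mice (584 without mouse 2, 613 without mouse 4, 683 without mouse 5). Of the 8 genes, 3 were called with DESeq2, and 2 with median-ratio size factors, with no filter on low counts and with a mean of at least 50 counts, against 1 otherwise and without single mice. Those last 3 settings called 1049, 1168 and 919 genes in all. Ggt1 passed with DESeq2 (0.53, adjusted p = 0.0429). Ggt7 passed with DESeq2 (1.09, adjusted p = 0.00178), median-ratio size factors (1.10, adjusted p = 0.0472), no filter (1.09, adjusted p = 0.0335) and the 50-count filter (1.10, adjusted p = 0.0484). The fit without the replicate block called 755 genes, and the block changed the call of none of the 8 genes. Without the pairing, the same differences between log2 ratios gave exact permutation p-values of 0.00794 (Ggt5 minus Ggt1, 2.24), 0.0397 (Ggt5 minus Ggt7, 1.67), 0.00794 (Ggt1 minus Ggt6, 0.79), 0.00794 (Ggt5 minus Ggt6, 3.03), 0.0952 (Ggt7 minus Ggt6, 1.36) and 0.476 (Ggt7 minus Ggt1, 0.57), not adjusted over the 6 pairs and with the shared mice ignored. Without single mice, Ggt1 ran from 0.36 to 0.66, Ggt5 from 2.56 to 3.14, Ggt7 from 0.91 to 1.30, Anpep from 0.55 to 1.44, Lap3 from 0.07 (without mouse 5) to 0.37 (without mouse 1), Cndp2 from 0.08 to 0.21, Ggt6 from -0.36 to -0.16 and the called pathway genes from 8 to 11 (10 in all mice). Dpep1 was -2.01 without the block and -1.07 to -0.03 without single mice. Levels and shares that were computed per coding length differed by more than the spread between mice in 15 of 24 cases. That follows from dividing the same CPM by a different length. The causes of the other changes were not tested. Dpep1 had 2 to 16 counts in 8 of the 10 libraries, few enough for counting error to weigh on its ratios.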
